A study of Mus musculus with 8 samples.

Results

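The genes described here encode the cytokines TNF, IL-1α and IL-1β, the IL-1 receptor antagonist, the inflammasome sensor NLRP3, and 5 proteins of the NF-κB system, which are the subunits p105 (Nfkb1), p100 (Nfkb2) and RelB and the feedback inhibitors IκBα (Nfkbia) and A20 (Tnfaip3). They were chosen by name, as genes of the IL-1 and TNF pathways and of NF-κB feedback, with earlier results of these data known. They make up 10 of the 54532 genes in the count table. All 10 had enough counts to enter the test, as did 17138 genes in all.

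Whole-lung RNA was sequenced from 14-week-old CC-LR mice, a model of lung adenocarcinoma on the C57BL/6 background, as 1 library from each mouse. The study describes the lungs frozen for RNA as taken after lavage of the airways and perfusion with buffered saline. How many airspace and blood cells remained in each lung is not given in the sources used here. All mice carried a latent K-ras G12D allele (LSL-K-ras G12D) and a Cre recombinase expressed from the locus of club cell secretory protein (CCSP), so the mutant K-ras arose in airway epithelial cells. There were 4 control mice and 4 mice that received TTI-101, a small-molecule inhibitor of STAT3, for 4 weeks. The study asked whether blocking STAT3 in early disease moves the lung toward NF-κB-driven chemokines and anti-tumor immunity, and the dose and route of TTI-101, what the control mice received, and the sex of each mouse were not given for these libraries in the sources used here. P-values measure the spread between these 8 mice.

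TNF and the IL-1 cytokines bind receptors that activate the IKK kinases, which mark IκBα for destruction and free NF-κB dimers to enter the nucleus. Nfkbia, Tnfaip3, Nfkb1, Nfkb2, Relb, Tnf and Il1b are themselves classical NF-κB targets, so that the pathway renews its own inhibitors and subunits as well as its ligands. In lung, IL-1β comes mostly from neutrophils, monocytes and macrophages, whereas IκBα is made by nearly every cell.

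To show this feedback in sequence, the stretches just before the transcription start that hold the κB consensus are printed for the 3 members in which it was found, 5′ to 3′ on the gene's strand, with the matches in capitals. Sequences and coordinates are from RefSeq on GRCm38.p6, and the consensus, searched on both strands, is 10 bases long.
Nfkbia, chr12:55492648-55492707, minus strand, bases -60 to -1: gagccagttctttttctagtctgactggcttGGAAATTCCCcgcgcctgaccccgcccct
Tnfaip3, chr10:19015411-19015540, minus strand, bases -130 to -1: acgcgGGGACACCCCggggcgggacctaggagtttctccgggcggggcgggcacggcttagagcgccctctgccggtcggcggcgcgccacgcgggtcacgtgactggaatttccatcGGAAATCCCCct
Nfkb2, chr19:46304677-46304736, plus strand, bases -60 to -1: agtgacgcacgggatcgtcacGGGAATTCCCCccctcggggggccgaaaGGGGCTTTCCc

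The windows ran from 250 bases before to 50 bases after the start and were found for 8 members, all but Nfkb1 and Relb. Of these 8, 3 held the consensus, against 4.51% of all 32851 mouse promoter windows (1480 windows). Nfkbia had a single match at -29 to -20, Tnfaip3 had matches at -125 to -116 and at -12 to -3, and Nfkb2 had overlapping matches on opposite strands at -39 to -30 and -38 to -29 and another at -11 to -2. The other 5 windows, those of Tnf, Il1a, Il1b, Il1rn and Nlrp3, had none. Starts were those of RefSeq and can differ from the bounds of the gene in the count table. The stretch printed for Tnfaip3 lies inside that gene as counted (chr10:19000910-19015657). The Nlrp3 window (chr11:59542436-59542735) lies inside its counted gene too, which begins at 59541568. A match is a description of the letters and not a site shown to be bound, and the lack of one says only that these letters are not in this window.

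None of the members passed the test between TTI-101-treated and control lungs. With edgeR's quasi-likelihood test, adjusted over the 17138 genes by Benjamini-Hochberg, 0 members had an adjusted p under 0.05, against a background of 0% (0 genes), and the lowest adjusted p of any gene was 0.105. At an unadjusted p under 0.05, 0 members passed, against 6.61% of all genes tested (1132 genes). By other tools, 4 genes passed the adjusted threshold in DESeq2 and 0 in limma-voom, and none of these was a member. No member had all 4 treated mice above all 4 controls, as 1.53% of all genes did, or all 4 below, as 1.43% did. The log2 fold change of treated over control was positive for 8 members and negative for Tnf and Il1rn, with a median of 0.16 over the members and 0.003 over all genes tested, of which 8669 were positive. Il1b (log2 fold change 1.04) and Tnf (-0.70) lay at the ends of this range, and the other 8 members lay between -0.15 and 0.34.

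**Figure D1:**
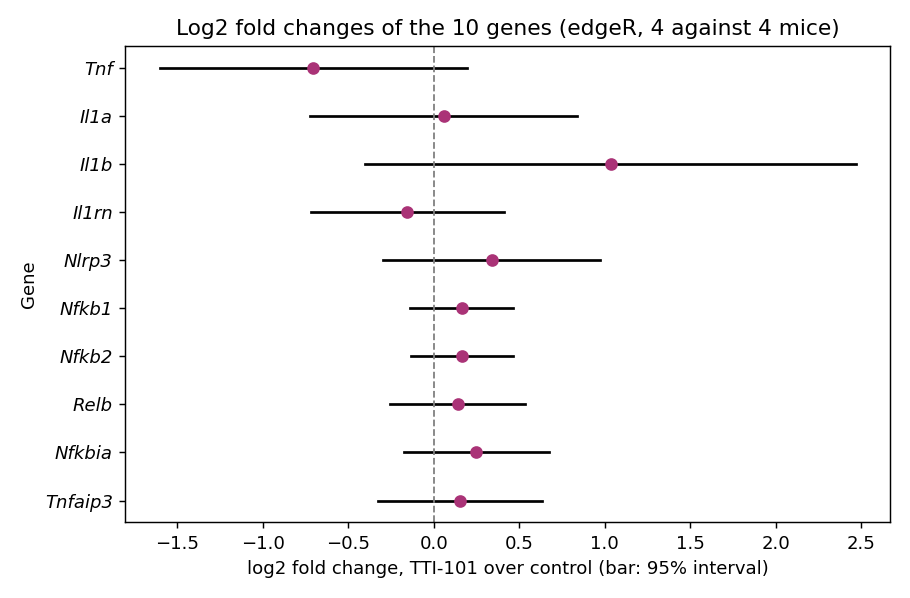
Log2 fold change of TTI-101-treated over control lungs for each of the 10 members from edgeR's quasi-likelihood fit, with bars for the 95% interval. Every interval crosses 0, that of Il1b (-0.40 to 2.47) is the widest and those of Nfkb1 and Nfkb2, both reaching 0.47, are narrow.

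Values are given as CPM, a gene's counts relative to the TMM-scaled size of its library, and in the order control mice 1 to 4 and then TTI-101-treated mice 1 to 4. Among the ligands, Tnf (ENSMUSG00000024401, chr17:35199381-35202007), which encodes the founding TNF cytokine, was at 1.17, 1.20, 1.94 and 1.47 CPM in control and 0.452, 1.32, 0.834 and 0.973 CPM in treated lungs. Of the treated mice, 3 lay below every control, while treated mouse 2 lay inside the control range. The means were 1.45 ± 0.357 CPM in control lungs (SD, n = 4) and 0.895 ± 0.359 CPM with treatment (SD, n = 4). This was 0.614 times the control level (95% interval 0.330 to 1.14, adjusted p = 0.657 in edgeR's quasi-likelihood test), and the two-sided exact permutation test over the 70 ways of splitting 8 mice into groups of 4, which cannot go below 0.0286, gave p = 0.0857. These values rest on only 12 to 35 counts per library, the lowest of the members.

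Il1b (ENSMUSG00000027398, chr2:129364570-129371139), the precursor of the secreted cytokine IL-1β, was at 25.5, 4.96, 21.2 and 5.50 CPM in control and 25.8, 7.27, 25.5 and 59.4 CPM in treated lungs. Both groups held low and high mice, with control mice 2 and 4 and treated mouse 2 at 4.96 to 7.27 CPM and the other 5 mice at 21.2 to 59.4 CPM. The means were 14.3 ± 10.6 CPM in control lungs (SD, n = 4) and 29.5 ± 21.7 CPM with treatment (SD, n = 4), a ratio of 2.05 with a 95% interval of 0.758 to 5.54 (adjusted p = 0.666 in edgeR, exact permutation p = 0.2). Treated mice 1 and 4 exceeded every control, mouse 1 by a small margin, and the highest mouse had 5.15 times the lowest in control and 8.18 times in treated lungs. Without treated mouse 4 the log2 fold change of Il1b was 0.45 in place of 1.04. Within groups, the SD of log2 CPM of Il1b was 1.24, larger than that of 98.2% of the genes tested, whose median was 0.334.

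Il1a (ENSMUSG00000027399, chr2:129299610-129309972), which lies near Il1b and encodes the alarmin IL-1α, was at 3.92, 2.87, 2.05 and 1.79 CPM in control and 2.53, 1.74, 3.11 and 3.77 CPM in treated lungs. The groups covered nearly the same range, with treated mouse 2 and control mouse 4 the lowest and control mouse 1 and treated mouse 4 the highest. The ratio was 1.04 (95% interval 0.606 to 1.79, adjusted p = 0.971 in edgeR), and its sign turned when control mouse 3, control mouse 4 or treated mouse 4 was left out.

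Il1rn (ENSMUSG00000026981, chr2:24336853-24351494) encodes the antagonist that occupies the IL-1 receptor without signaling. It was at 12.6, 6.58, 6.71 and 6.78 CPM in control and 7.20, 6.61, 7.39 and 8.27 CPM in treated lungs. Control mouse 1 stood alone, and the other 7 mice lay between 6.58 and 8.27 CPM. The ratio was 0.899 (95% interval 0.608 to 1.33, adjusted p = 0.864 in edgeR), and without control mouse 1 the log2 fold change was 0.14 in place of -0.15.

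The ratio of Il1b to Il1rn per gene length, chosen after the values were seen, was 2.03 ± 1.01 on the log2 scale in control lungs (SD, n = 4) and 3.19 ± 1.12 with treatment (SD, n = 4). The values were 2.56, 1.13, 3.20 and 1.24 in control and 3.38, 1.68, 3.32 and 4.38 in treated mice. Treated mice 1, 3 and 4 lay above every control and treated mouse 2 inside the control range, and the means differed by 1.16 (exact permutation p = 0.143, two-sided). Leaving out 1 mouse at a time put this difference between 0.76 and 1.66, the lowest without treated mouse 4.

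Nlrp3 (ENSMUSG00000032691, chr11:59541568-59566956) encodes the sensor that assembles the inflammasome through which caspase-1 cuts pro-IL-1β. It was at 6.64, 6.10, 6.32 and 3.01 CPM in control and 6.90, 5.10, 8.23 and 7.78 CPM in treated lungs. Treated mice 1, 3 and 4 exceeded every control, whereas treated mouse 2 was below control mice 1 to 3 and control mouse 4 was the lowest of all. The ratio was 1.27 (95% interval 0.815 to 1.97, adjusted p = 0.727 in edgeR, exact permutation p = 0.257), and without control mouse 4 the log2 fold change was 0.15 in place of 0.34.

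**Figure D2:**
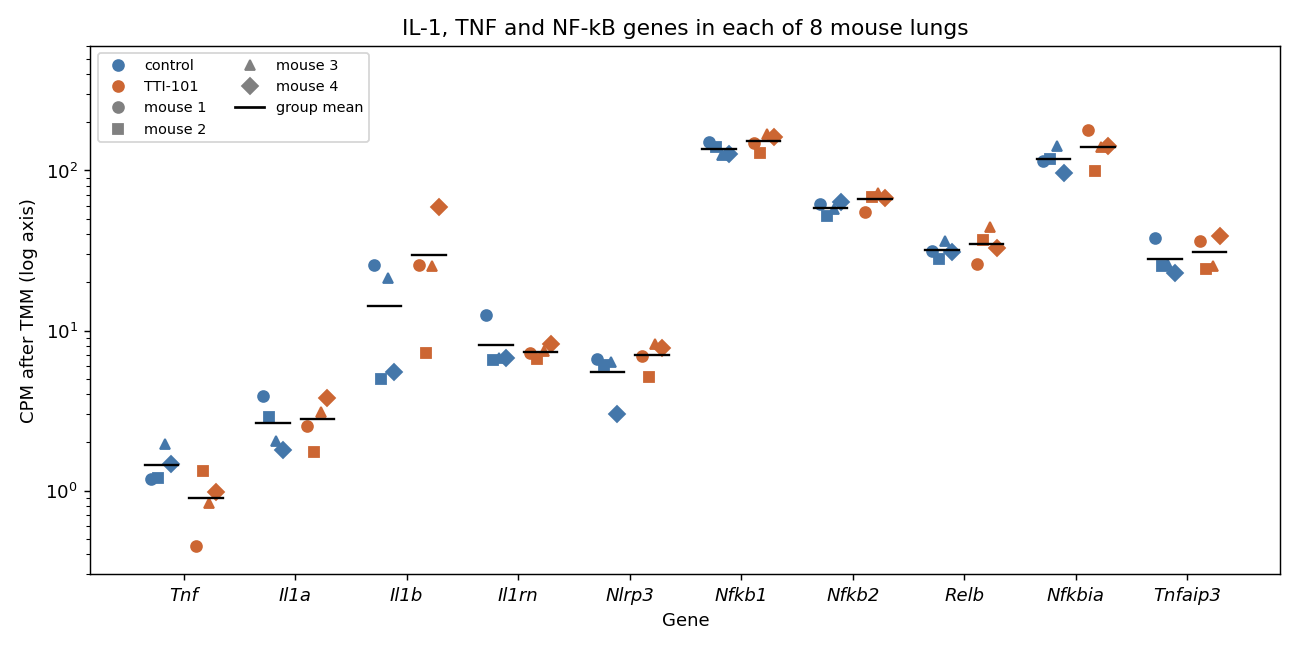
CPM after TMM scaling, on a shared log axis, of each of the 10 members in every mouse. Control and TTI-101-treated mice are side by side, with a marker shape for each mouse number and a line for the mean of each group. The groups overlap for every gene, and Il1b runs from 4.96 to 59.4 CPM while Nfkb1 stays between 125 and 169 CPM.

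Of the NF-κB subunits, Nfkb1 (ENSMUSG00000028163, chr3:135584655-135691547), whose p105 product is cut to the DNA-binding p50, was at 151, 139, 125 and 127 CPM in control and 148, 129, 169 and 162 CPM in treated lungs. Treated mice 3 and 4 were the highest and the other 2 treated mice lay among the controls. The means were 136 ± 12.1 CPM (SD, n = 4) and 152 ± 17.5 CPM (SD, n = 4), a ratio of 1.12 (95% interval 0.909 to 1.38, adjusted p = 0.722 in edgeR, exact permutation p = 0.2).

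Nfkb2 (ENSMUSG00000025225, chr19:46304737-46312090) encodes p100, the precursor of p52 and the hub of the noncanonical pathway. It was at 61.9, 51.8, 57.3 and 63.3 CPM in control and 54.9, 68.6, 72.3 and 67.6 CPM in treated lungs. Here treated mice 2, 3 and 4 lay above every control and treated mouse 1 inside their range, a different order from that of Il1b. The ratio was 1.12 (95% interval 0.914 to 1.38, adjusted p = 0.711 in edgeR, exact permutation p = 0.171).

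Relb (ENSMUSG00000002983, chr7:19606217-19629438), the partner of p52, was at 31.2, 28.2, 36.3 and 31.0 CPM in control and 25.9, 36.8, 44.1 and 32.8 CPM in treated lungs. Treated mouse 1 was the lowest and treated mouse 3 the highest of all 8, as for Nfkb2 within the treated group. The ratio was 1.10 (95% interval 0.839 to 1.45, adjusted p = 0.818 in edgeR). The log2 ratio of Nfkb2 to Nfkb1 per gene length, also chosen after the values were seen, was 0.663 ± 0.185 in control lungs (SD, n = 4) and 0.667 ± 0.216 with treatment (SD, n = 4) (exact permutation p = 1.0). These 2 subunits were the steadiest members within groups, with SDs of log2 CPM of 0.15 for Nfkb1 and 0.154 for Nfkb2, and 8.99% and 9.62% of the genes tested had a smaller SD.

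Of the feedback inhibitors, Nfkbia (ENSMUSG00000021025, chr12:55489410-55492647), whose product IκBα holds NF-κB in the cytoplasm, was at 115, 119, 142 and 96.6 CPM in control and 178, 99.1, 141 and 143 CPM in treated lungs. Treated mice 1 and 4 exceeded every control, treated mouse 4 by little, and treated mouse 2 was near the lowest control. The means were 118 ± 18.6 CPM (SD, n = 4) and 140.3 ± 32.3 CPM (SD, n = 4), a ratio of 1.19 (95% interval 0.888 to 1.59, adjusted p = 0.702 in edgeR, exact permutation p = 0.257).

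Tnfaip3 (ENSMUSG00000019850, chr10:19000910-19015657) encodes the ubiquitin-editing enzyme A20, which shuts down signaling below the TNF and IL-1 receptors. It was at 37.8, 25.3, 25.7 and 23.0 CPM in control and 36.3, 24.3, 25.2 and 38.9 CPM in treated lungs. Control mouse 1 and treated mice 1 and 4 formed a high set in both groups, with the other 5 mice between 23.0 and 25.7 CPM. The ratio was 1.11 (95% interval 0.799 to 1.55, adjusted p = 0.836 in edgeR). The intervals of Il1b, Nlrp3, Il1a, Nfkbia and Tnfaip3 reached ratios of 1.55 or more, and those of Tnf, Il1a and Il1rn ratios of 0.608 or less, so ratios of these sizes are within the error of 4 mice a group.

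In level per kilobase of the gene length in the table, the members ranged from Nfkbia down to Tnf. Nfkbia was the highest, at 80.2 ± 16.9 CPM per kb (SD, n = 8), followed by Nfkb2 at 18.9 ± 2.17, Nfkb1 at 11.9 ± 1.36, Il1b at 11.5 ± 9.34, Relb at 8.57 ± 1.48 and Tnfaip3 at 4.09 ± 0.940 CPM per kb (SD, n = 8). Nlrp3 at 1.54 ± 0.403, Il1rn at 1.40 ± 0.366, Il1a at 1.38 ± 0.430 and Tnf at 0.714 ± 0.271 CPM per kb (SD, n = 8) were the lowest. Steps that held in all 8 mice were those from Nfkbia to Nfkb2, from Nfkb2 to Nfkb1, from Relb to Tnfaip3 and from Tnfaip3 to Nlrp3. Il1b had no fixed place, since it exceeded Relb in 5 mice and was exceeded by Nfkb1 in 4, and Nlrp3, Il1rn and Il1a differed from each other by less than their spread. Il1a exceeded Tnf in 7 mice. Expression of Il1a and Il1b may hold reads of the genes Gm14023 and Il1bos on the opposite strand, which had 6 to 15 and 1 to 13 counts, because the strand setting of the counting was not given. Gm43430, inside Nfkb1 on the same strand, had 0 to 8 counts, and Psd, with 186 to 441 counts, overlaps Nfkb2 by only 4 bases.

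Some cell type markers moved across mice together with 2 of the members. In whole lung, fewer cells of a type and less RNA per cell cannot be told apart. The libraries are labelled as lung and held lung epithelium. All 8 alveolar type 2 and club cell markers were tested, with a summed level of 62100 to 109000 CPM in control and 43800 to 80700 CPM in treated lungs. On the first principal component (45.2% of the variance) control mouse 4 was an extreme of the 8 mice and had the highest mitochondrial share, 5.56% against 2.01% to 2.85%.

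Il1b was low in the mice with a low neutrophil score. The neutrophil score, the mean log2 CPM of 8 tested markers of 11 listed, was 4.63, 2.85, 4.50 and 2.35 in control and 4.70, 3.13, 4.28 and 5.01 in treated lungs, and its 3 lowest mice, control 2, control 4 and treated 2, were the 3 lowest for Il1b. S100a9, a calcium-binding protein abundant in neutrophils, was at 88.9, 12.9, 62.2 and 7.36 CPM in control and 108, 15.3, 74.3 and 119 CPM in treated lungs, and so had the same low mice. Ltf, another of the 8 markers and one that airway epithelium also expresses, did not follow this order, at 103, 278, 274 and 153 CPM in control and 47.4, 525, 39.7 and 62.4 CPM in treated lungs, with its highest level in treated mouse 2. Without Ltf, a choice made after the values were seen, the score of the 7 other markers was 1.65 to 2.29 in the same 3 mice and 3.99 to 4.88 in the other 5. Since the mice fall into a set of 3 and a set of 5, and neither holds the 6 mice needed here for a correlation, no value of r is given for Il1b. The score differed by 0.70 between the groups (two-sided exact permutation p = 0.286), with 7 of the 8 tested markers higher in treated lungs, none of them at an unadjusted edgeR p under 0.05, and summed levels of 189 to 499 CPM in control and 295 to 587 CPM in treated lungs. Ltf made up most of the highest sum, that of treated mouse 2, and without it the sums were 36.2 to 289 CPM in control and 62.1 to 436 CPM in treated lungs, all 7 markers had the higher mean in treated lungs and the score differed by 0.95 (exact permutation p = 0.229). Ngp, Camp and Ly6g, markers of neutrophils and their precursors, were too low to be tested, at 3.16 CPM or less, with Ngp at 0 in control mouse 4. The part of neutrophil content in the values of Il1b was not tested.

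Nlrp3 was correlated with the monocyte score. Over the 8 mice its log2 CPM and the mean log2 CPM of the 9 monocyte markers had Pearson's r = 0.962 (exact permutation p = 0.000149, adjusted p = 0.0246) and Spearman's rho = 0.905 (exact permutation p = 0.00456), and r was 0.939 without control mouse 4 and treated mouse 2, the mice farthest from the median score. On deviations from the group means r was 0.957, so the relation did not rest on the difference between the groups. Nlrp3 was also correlated with the endothelial score (r = 0.965, exact permutation p = 0.000868, adjusted p = 0.0379, rho = 0.881, exact permutation p = 0.00724) and against the alveolar type 2 and club cell score (r = -0.921, exact permutation p = 0.000595, adjusted p = 0.0379, rho = -0.905, exact permutation p = 0.00456), and these were 0.731 without control mouse 4 and treated mouse 3 and -0.823 without control mouse 4 and treated mouse 4. With the alveolar macrophage, B cell and T cell scores r of Nlrp3 was 0.853, 0.849 and 0.842. Their exact permutation p-values were 0.00484, 0.00513 and 0.00553 (adjusted p = 0.104 for each), so a high r was not particular to the monocyte score. The relation of Nlrp3 with the neutrophil score pools the set of 3 and the set of 5 mice, so its r is not given. Nfkb1 had r = -0.861 with the alveolar type 2 and club cell score and 0.85 with the alveolar macrophage score. The exact permutation p-values of Nfkb1 were 0.00593 and 0.00692 (adjusted p = 0.104 for each). These come from 165 relations tested, 45 between members and 120 between a member and a marker score, of which 40 had an unadjusted p under 0.05 and 4 an adjusted p under 0.05. The fourth, of Il1b with the neutrophil score, pools the set of 3 and the set of 5 mice and is counted here without its value. Among the 45 member pairs 32 were positive and 0 had an adjusted p under 0.05. The monocyte score was 5.34 ± 0.607 in control lungs (SD, n = 4) and 5.77 ± 0.563 with treatment (SD, n = 4) (exact permutation p = 0.4), with 6 of 9 markers higher and summed levels of 710 to 1620 CPM and 1460 to 2380 CPM. Ace and Fn1, which other lung cells also express, made up most of these sums. The 3 markers lower in treated lungs were Ccr2 (means of 61.3 and 49.7 CPM in control and treated lungs), Ly6c2 (28.6 and 26.5 CPM) and F13a1 (34.3 and 24.0 CPM). Apart from Ace and Fn1, the higher ones were Plac8 (23.2 and 40.2 CPM), Ms4a4c (8.92 and 12.4 CPM), Nr4a1 (70.9 and 148 CPM) and Treml4 (3.47 and 6.81 CPM). Without Ace and Fn1, a choice made after the values were seen, the sums were 135 to 331 CPM in control and 212 to 423 CPM in treated lungs, and Nlrp3 had r = 0.936 with the score of the 7 other markers (exact permutation p = 0.000298, adjusted p = 0.0379). The part of cell content in the values of Nlrp3 was not tested.

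**Figure D3:**
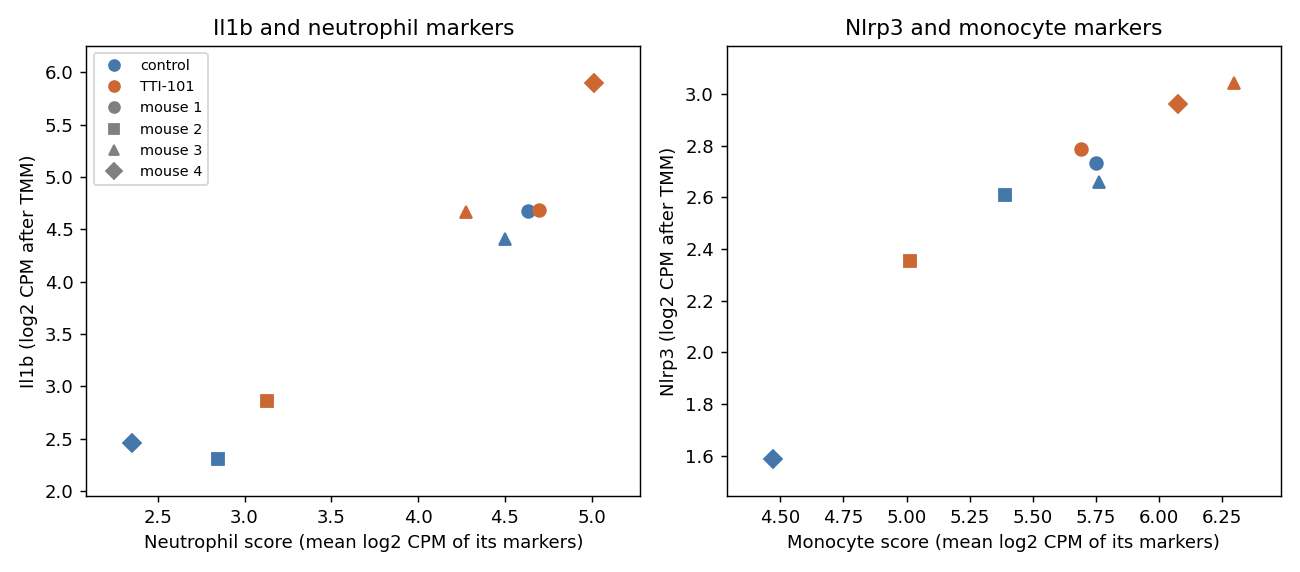
Left, log2 CPM of Il1b against the neutrophil score, and right, log2 CPM of Nlrp3 against the monocyte score, each the mean log2 CPM of the marker genes, with 1 point per mouse colored by group and shaped by mouse number. Control mice 2 and 4 and treated mouse 2 form a low set for Il1b, and control mouse 4 is the lowest for Nlrp3.

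Around the members, 100 genes of the same pathways were in the table out of 104 listed, and 93 were tested. None had an adjusted p under 0.05 in edgeR's quasi-likelihood test (lowest 0.657), and 3 higher and 5 lower genes, 8.60% of the 93, had an unadjusted p under 0.05, near the 6.61% of all genes. The log2 fold change was positive in 58 and negative in 35, with a median of 0.07. All treated mice lay above all controls for Ltb, Rnf31 and Nfkbiz, as for 1.53% of all genes tested. They lay below all controls for Tnfrsf11a, as for 1.43% of all genes tested. By list, the number positive was 7 of 12 for other IL-1 family ligands and receptors, 15 of 21 for other TNF ligands, receptors and receptor complex genes, 8 of 14 for IL-1 and TLR adaptors and kinases, 4 of 7 for IKK kinases and noncanonical regulators, 6 of 7 for other NF-κB and IκB genes, 8 of 14 for other feedback inhibitors, 8 of 12 for other inflammasome genes and 2 of 6 for the chemokine and growth factor transcripts. The medians ran from -0.29 in the last of these lists to 0.34 for other NF-κB and IκB genes.

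Of the ligands and receptors, Ltb (chr17:35194439-35196320), which encodes lymphotoxin β and lies beside Tnf, was at 26.2, 20.4, 27.2 and 18.3 CPM in control and 34.5, 35.3, 56.5 and 34.2 CPM in treated lungs. All treated mice exceeded all controls, and the means of 23.0 ± 4.35 CPM (SD, n = 4) and 40.1 ± 11.0 CPM (SD, n = 4) gave a log2 fold change of 0.80 (adjusted p = 0.657 in edgeR, exact permutation p = 0.0286, the smallest possible). Lymphotoxin β is made by B and T cells, and all 9 B cell markers were higher in treated lungs at an unadjusted edgeR p under 0.05, with summed levels of 106 to 308 CPM in control and 266 to 548 CPM in treated lungs and none at 0. Whether B cell content had a part in Ltb was not tested. Tnfrsf11a, which encodes the receptor RANK, was at 15.2 ± 4.02 CPM in control lungs (SD, n = 4) and 9.99 ± 1.06 CPM with treatment (SD, n = 4), a log2 fold change of -0.61 (adjusted p = 0.657 in edgeR). Every treated mouse was lower than any control, by a small margin, with treated mouse 2 at 11.1 CPM and control mouse 2 at 11.3 CPM. Il33, an epithelial and stromal alarmin of the IL-1 family, was at 137 ± 34.5 CPM in control lungs (SD, n = 4) and 91.4 ± 14.6 CPM with treatment (SD, n = 4), with 3 treated mice below every control (log2 fold change -0.58, adjusted p = 0.657 in edgeR).

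Among the kinases and regulators, Chuk, the IKKα gene of the noncanonical arm, was at 82.7 ± 12.3 CPM (SD, n = 4) and 65.2 ± 8.92 CPM in control lungs (SD, n = 4) and treated lungs. Nfkbiz, which encodes the nuclear IκBζ that assists NF-κB at secondary targets, was at 28.6, 29.2, 29.4 and 25.2 CPM in control and 30.6, 37.4, 37.5 and 38.3 CPM in treated lungs. All treated mice were above all controls, treated mouse 1 by the least (log2 fold change 0.35, adjusted p = 0.657 in edgeR). Dusp1, the phosphatase that limits p38 and JNK signaling, was at 252, 264, 269 and 155 CPM in control and 457, 226, 406 and 454 CPM in treated lungs. Its treated mouse 2 lay inside the control range as it did for Il1b, Nlrp3 and Nfkbia (log2 fold change 0.71, adjusted p = 0.657 in edgeR). Usp18, a deubiquitinase best known as a brake on interferon signaling, was at 27 ± 4.88 CPM (SD, n = 4) and 20.5 ± 2.63 CPM (SD, n = 4).

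**Figure D4:**
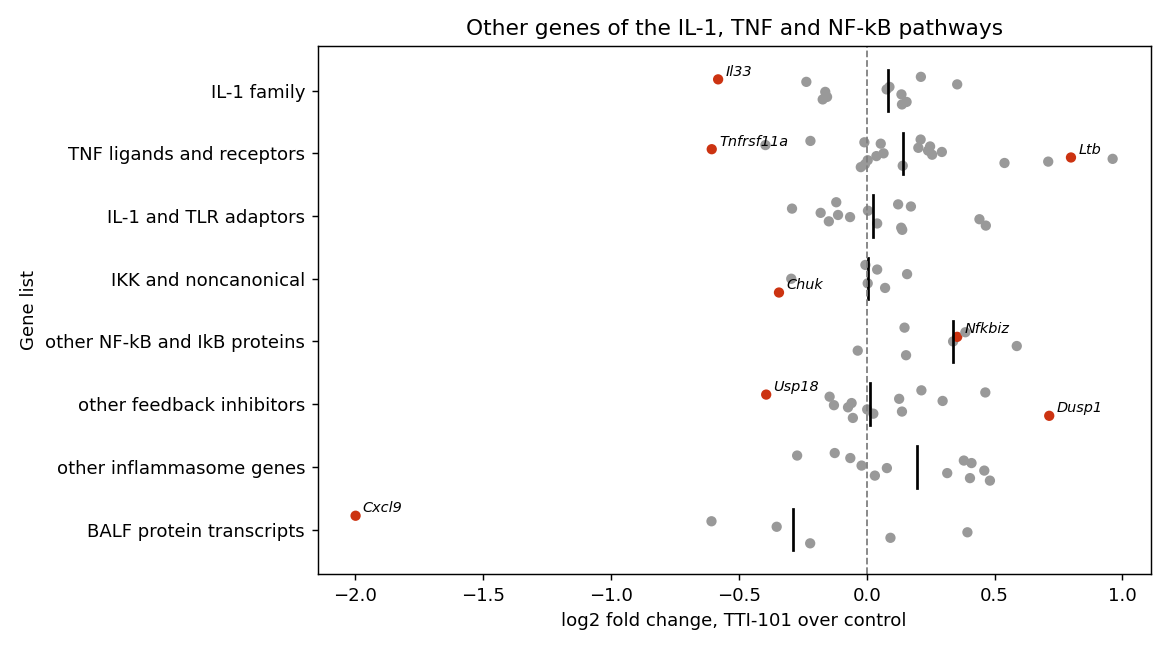
Log2 fold change of TTI-101-treated over control lungs for the 93 tested genes of the 8 pathway lists, 1 row per list and 1 point per gene. The points lie on both sides of 0 in every list, and 8 of the 93 have an unadjusted edgeR p under 0.05.

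Chemokines and growth factors of the NF-κB program were measured by the study as proteins in lavage fluid. The study reports them as higher with TTI-101, together with IL-1α and TNF, whose genes Il1a and Tnf are members. Lung transcripts and lavage proteins are different measures, and their directions were not compared by a test. The transcripts of 8 of them that are not members were examined in whole lung. None had an adjusted p under 0.05. Cxcl9, a chemokine for primed T cells, was at 10.5, 0.837, 0.555 and 1.79 CPM in control and 1.21, 1.26, 0.723 and 0.243 CPM in treated lungs, so a single control mouse set the control mean. Its log2 fold change was -2.0 (adjusted p = 0.657 in edgeR) and -0.28 without control mouse 1. The neutrophil attractant Cxcl1 (log2 fold change -0.61), the monocyte attractant Ccl2 (-0.22), the Treg attractant Ccl22 (0.09) and the growth factors Csf1 (0.39) and Csf2 (-0.35) had adjusted p-values of 0.718, 0.914, 0.919, 0.713 and 0.779 in edgeR. Without control mouse 1 the log2 fold change of Cxcl1 was -0.054, and without control mouse 4 that of Csf1 was 0.14. The low Csf1 of control mouse 4, 17.6 CPM against 49.8 to 58.8 CPM in the other controls, lay in the same library as the lowest Nlrp3. Csf3 (0 to 0.192 CPM) and Cxcl2 (0.299 to 1.09 CPM) were too low to be tested.

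For each member, the 3 genes with the most similar pattern over the 8 mice were found by Pearson's r of log2 CPM among 15916 genes, given as a description with no test, since the highest of so many values over 8 mice is high by selection. For Il1b these were Med20, Csf3r, the G-CSF receptor and a marker in the neutrophil score, and Gad1-ps. Their r with Il1b pools the set of 3 and the set of 5 mice, so its values are not given. For Nlrp3 the nearest genes were Aqp1 (0.99), the water channel of lung capillaries, Tmem8b (0.99) and Cdo1 (0.989). For Tnf they were Timp1 (0.954), Ano9 (0.952) and Dctpp1 (0.947), for Il1a Gm15337 (0.99), Spats2l (0.947) and Vps8 (0.942), and for Il1rn Atp2a1 (0.964), Slc9a4 (0.950) and Cxcr6 (0.936). For Nfkb1 they included Dcaf12 (0.976) and Pqlc3 (0.976), for Nfkb2 they were B4galnt1 (0.961), Mark2 (0.957) and Llgl2 (0.947), and for Relb Mvk (0.968), Mta2 (0.968) and Dpp3 (0.966). For Nfkbia they were Rgs18 (0.945), 1600012H06Rik (0.921) and Zfp420 (0.914), and for Tnfaip3 Srgap2 (0.967), Gpcpd1 (0.966) and Kctd12b (0.961). No member was among the 3 nearest genes of another.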

How the data were processed

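Poly(A) RNA of 8 whole lungs, 4 control and 4 TTI-101-treated, was made into stranded libraries and sequenced as paired ends by the provider. The authors deposited whole-number counts per Ensembl gene with no normalization. The submitters' processing notes name STAR, DESeq2 and mm10. The counting tool, its strand setting and the versions are not given in the sources used here. Totals ran from 16075855 to 26873509 counts per library, with overlapping groups.

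The analysis used R 4.3.3 and edgeR 4.0.16 (filterByExpr with a minimum count of 10, TMM, robust quasi-likelihood F-tests, no covariate, Benjamini-Hochberg over 17138 genes), limma 3.58.1 and DESeq2 1.42.0. log2 CPM had a prior count of 2. Single values were compared by two-sided exact permutation tests over 70 assignments in R. Correlations were tested over all 40320 pairings in Python 3.11.15 with scipy 1.17.1. The marker scores without Ltf or without Ace and Fn1 were also computed and tested in Python. The fit was tested on simulated counts with the same dispersion for every gene and with large changes only. That check does not cover the spread or the smaller ratios of the members. Named genes were all members, all transcripts of the lavage proteins, up to 6 increased and 6 decreased other pathway genes with the lowest unadjusted p under 0.05, and the 3 genes most like each member with a mean CPM of at least 1, of which 1 is not reported here. The members, gene lists and marker lists were chosen with earlier results of these data known. The fit was repeated with limma-voom, with the Wald test or only the size factors of DESeq2, scaled by library totals, unfiltered, restricted to protein-coding genes or to genes with 10 counts or more in each library, with a replicate block, and without each library in turn, and correlations were repeated with a prior count of 0.5. The ratios and the marker scores without Ltf or without Ace and Fn1 were chosen after seeing the data.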

Additional observations from a re-analysis of the deposited data

Results flagged for a closer look

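In 12 of 74 groups of 4 values, the highest or lowest mouse lay far from the other 3, by a gap whose share of the group's whole range exceeded Dixon's critical value at 95%. Chance flags about 1 in 20 such groups, or 3.7 of 74, and the 74 groups share the same 8 mice. Control mouse 1 was high for Il1rn (12.6 CPM, the others 6.58 to 6.78), for Cxcl9 (10.5 CPM, the others 0.555 to 1.79) and in total counts (26873509, the others 16446481 to 18220467). Control mouse 4 was low for Nlrp3 (3.01 CPM, the others 6.10 to 6.64), for Dusp1 (155.3 CPM, the others 251.6 to 269.4) and for the endothelial score (6.81, the others 8.16 to 8.35), and high in mitochondrial share (5.56%, the others 2.44% to 2.85%). Among treated mice, mouse 1 was low for Nfkbiz (30.6 CPM, the others 37.4 to 38.3), mouse 2 was high for Ccl2 (1.68 CPM, the others 0.641 to 0.778) and for the alveolar type 2 and club cell score (12.33, the others 11.61 to 11.73), mouse 3 was high for Ltb (56.5 CPM, the others 34.2 to 35.3) and mouse 4 was low for the adipocyte score (1.85, the others 3.83 to 4.17).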

How the results depend on the processing

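No member had an adjusted p under 0.05 under any alternative run, and the median log2 fold change of the members stayed positive, at 0.15 to 0.20 (main 0.16) with all mice and at 0.12 to 0.24 when 1 mouse was left out. Genes called in all were 4 with DESeq2's Wald test, 0 in the other fits with all mice, and 0 to 1 when 1 mouse was left out (1 without control mouse 1 or treated mouse 3). Members at an unadjusted p under 0.05 numbered 0 to 2 when 1 mouse was left out, both of them without treated mouse 2 (Il1b, log2 fold change 1.37, adjusted p = 0.329 in edgeR, and Nfkbia, 0.40, adjusted p = 0.333 in edgeR), where 14.2% of all genes passed, and 0 in the other fits. Members whose groups did not overlap numbered 0 to 2 likewise, Tnf (lower) and Nlrp3 (higher) without treated mouse 2 and Nfkb2 (higher) without treated mouse 1. Here 6.19% of all genes had every treated mouse lower and 7.63% every one higher without treated mouse 2, and 2.87% every one higher without treated mouse 1. Pathway genes at an unadjusted p under 0.05 numbered 8, 5 in limma-voom, and 4 (without treated mouse 3) to 15 (without control mouse 1) when 1 mouse was left out. Over the alternatives 156 of 160 member fold changes kept their sign, and the others were those of Il1a (range -0.12 to 0.32) and Il1rn (-0.24 to 0.14), each with 1 mouse left out. Of 206 for the named pathway genes 202 kept it, the others being Ccl2 (-0.64 to 0.055) and Ccl22 (-0.018 to 0.25), and the difference in the ratio of Nfkb2 over Nfkb1 ran from -0.094 to 0.079. Whether the replicate numbers pair the mice cannot be decided from these data. Correlations of same-numbered deviations were 0.393, 0.082, 0.158 and 0.071, and those of differently numbered mice ran from -0.421 to 0.167. The highest total in each group was that of mouse 1 (26873509 counts in control and 25920509 in treated lungs). With the replicate number as a block, 0 genes were called, 1298 had an unadjusted p under 0.05 in place of 1132 and the median of the members was 0.16, and control mice 3 and 4 correlated best with treated mouse 2. Genes at an unadjusted p under 0.05 ranged from 422 without treated mouse 3 to 2498 without treated mouse 2. With 4 mice a group, and with 12 to 35 counts for Tnf, the data do not separate the ratios inside the intervals given.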

Other observations

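The genes of the TNF locus on chromosome 17 lie in the order Ltb (35194439 to 35196320), Tnf (35199381 to 35202007) and Lta (35203165 to 35205351). Lta, which encodes lymphotoxin α and was chosen after its values were seen, was at 1.28, 0.717, 0.555 and 0.704 CPM in control mice 1 to 4 and 1.43, 2.58, 1.61 and 0.851 CPM in treated mice 1 to 4. Treated mice 1, 2 and 3 lay above every control (log2 fold change 0.96, adjusted p = 0.657 in edgeR, exact permutation p = 0.0571, from 10 to 43 counts per library). The log2 fold changes of both lymphotoxin genes were positive and that of Tnf between them was -0.70, and the differences between the genes were not tested.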
